A study of Mus musculus with 12 samples.

Results

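The Hox genes of the 4 mammalian clusters were followed along the mouse gut, in colon against stomach and across the genotypes of Spdef. Members were all genes whose symbol is Hoxa, Hoxb, Hoxc or Hoxd followed by digits only, and every probe set of such a gene was kept. This gave 33 genes read by 35 probe sets, of 11807 named genes and 22626 probe sets in all. The Hoxa cluster on chromosome 6 had 10 probe sets of 9 genes, the Hoxb cluster on chromosome 11 had 11 of 10 genes, the Hoxc cluster on chromosome 15 had 5 of 5 genes and the Hoxd cluster on chromosome 2 had 9 of 9 genes.

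RNA of flash frozen stomach and colon was read on 12 Affymetrix mouse genome arrays, chips on which each transcript is measured by a set of short probes. The mice were 16 weeks old, of strain C57BL/6, and untreated. There were 2 arrays in each of 6 groups: colon of Spdef knockout (KO), heterozygous (HET) and wild type (WT) mice, and stomach of KO, HET and WT mice. The labels do not say how the Spdef allele was made, whether its loss was confined to a tissue, or whether both samples of a group were taken from different mice. The p-values therefore reflect the spread among these samples alone, which may be technical. Levels are given as log2(intensity + 16) after quantile normalization, which understates the changes of dim probe sets, and a level is compared between arrays only within a probe set. The number of arrays limits the precision.

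Hox genes encode homeodomain transcription factors that give cells their position along the body axis. Within a cluster the genes lie in the order in which they are switched on, with low paralogue numbers active towards the head and high numbers towards the tail, and the mesoderm around the gut tube carries such a pattern from foregut to hindgut. Hox proteins bind DNA together with TALE homeodomain partners (Pbx, Meis and Pknox), and Cdx proteins, retinoic acid and the polycomb and trithorax chromatin complexes are known regulators of the clusters.

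Promoters of 6 of the members with higher levels in colon are shown because the regulators above act through DNA near these genes. RefSeq windows of GRCm38.p6, running from 250 bases before to 50 bases after a transcript start, were held for 21 of the member genes, with 23 windows. Each line gives a window 5′ to 3′ on its own strand, and capitals mark matches on either strand to TTTATG (the core bound by Cdx proteins), TGATNNAT (a site for Hox with Pbx) or AGGTCA (an element of retinoic acid receptor sites).
Hoxa7, chr6:52218524-52218823, minus strand: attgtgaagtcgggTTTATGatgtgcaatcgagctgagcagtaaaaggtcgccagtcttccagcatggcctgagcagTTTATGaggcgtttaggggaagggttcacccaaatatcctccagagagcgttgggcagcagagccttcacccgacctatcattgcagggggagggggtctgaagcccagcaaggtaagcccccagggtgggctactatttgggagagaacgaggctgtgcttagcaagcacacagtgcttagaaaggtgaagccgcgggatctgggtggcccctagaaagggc
Hoxa9, chr6:52227321-52227620, minus strand: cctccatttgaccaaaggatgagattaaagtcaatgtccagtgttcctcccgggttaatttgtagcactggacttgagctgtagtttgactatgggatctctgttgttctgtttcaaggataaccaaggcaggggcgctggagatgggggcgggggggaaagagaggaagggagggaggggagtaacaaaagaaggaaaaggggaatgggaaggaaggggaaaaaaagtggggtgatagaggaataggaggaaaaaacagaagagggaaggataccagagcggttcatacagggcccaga
Hoxa10, chr6:52234890-52235189, minus strand: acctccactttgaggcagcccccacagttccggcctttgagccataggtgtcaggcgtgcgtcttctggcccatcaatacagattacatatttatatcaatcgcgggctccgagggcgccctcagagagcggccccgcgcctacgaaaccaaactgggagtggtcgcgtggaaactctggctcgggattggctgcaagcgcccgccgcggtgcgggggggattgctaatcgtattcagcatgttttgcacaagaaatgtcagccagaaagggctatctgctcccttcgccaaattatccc
Hoxa10, chr6:52240805-52241104, minus strand: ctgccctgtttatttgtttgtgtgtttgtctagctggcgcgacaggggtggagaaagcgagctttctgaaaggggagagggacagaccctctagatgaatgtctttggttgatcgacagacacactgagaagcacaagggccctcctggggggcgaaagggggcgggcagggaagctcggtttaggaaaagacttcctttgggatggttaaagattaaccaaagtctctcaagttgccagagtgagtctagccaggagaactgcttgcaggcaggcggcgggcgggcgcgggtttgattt
Hoxa11, chr6:52245761-52246060, minus strand: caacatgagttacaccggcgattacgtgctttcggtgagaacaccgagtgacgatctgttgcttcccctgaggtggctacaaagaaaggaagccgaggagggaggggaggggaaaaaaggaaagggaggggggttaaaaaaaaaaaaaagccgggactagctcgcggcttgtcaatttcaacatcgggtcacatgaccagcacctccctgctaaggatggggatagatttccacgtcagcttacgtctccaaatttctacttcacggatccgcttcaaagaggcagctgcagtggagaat
Hoxb8, chr11:96281655-96281954, plus strand: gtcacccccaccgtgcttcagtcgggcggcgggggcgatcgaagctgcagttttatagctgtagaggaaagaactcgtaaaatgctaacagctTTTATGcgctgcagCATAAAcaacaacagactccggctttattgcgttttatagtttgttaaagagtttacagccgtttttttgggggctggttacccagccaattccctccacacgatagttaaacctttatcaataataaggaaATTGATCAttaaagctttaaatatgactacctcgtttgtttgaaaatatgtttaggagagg
Hoxd10, chr2:74691641-74691940, plus strand: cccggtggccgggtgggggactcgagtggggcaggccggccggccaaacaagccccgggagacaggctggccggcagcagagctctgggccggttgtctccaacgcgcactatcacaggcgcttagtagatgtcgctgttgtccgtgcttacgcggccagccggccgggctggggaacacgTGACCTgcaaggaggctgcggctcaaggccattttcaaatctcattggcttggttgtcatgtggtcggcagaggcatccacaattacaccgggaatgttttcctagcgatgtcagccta
The Hoxa7 window held 2 matches to TTTATG, the Hoxb8 window held 2 to TTTATG and 1 to TGATNNAT, and the Hoxd10 window held 1 to AGGTCA. The windows of Hoxa9, Hoxa10 and Hoxa11 held no match to these letters. Of the windows not printed, that of Hoxd8 held 1 match to AGGTCA and that of Hoxd9 held none. Over all 23 Hox windows, TTTATG was found in 5 (21.7%), against 11.9% of 32841 windows of all genes. TGATNNAT was found in 4 Hox windows (17.4%), against 8.85% of all windows, and AGGTCA in 7 (30.4%), against 16.3%. The median GC content was 57.3% in the Hox windows and 52.7% in all windows. The ratio of observed to expected CpG was above 0.6 in 11 Hox windows (47.8%), against 35.8% of all windows.

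The array labelled colon WT 2 stood apart before any Hox gene was considered. Its mean correlation with the other colon arrays was 0.933 across probe sets, against 0.957 to 0.969 for the other 5 colon arrays. A list of small intestine genes had a summed intensity of 93970 on that array, against 8348 to 14648 on the other colon arrays and 16228 to 20472 on the stomach arrays. Fabp6, the bile acid carrier of the ileum, read 14.42 there, while Car1, a carbonic anhydrase of colonic epithelium, read 6.65. Spdef, on chromosome 17, read 9.08 and 9.25 on the colon KO arrays, 10.27 and 9.81 on the colon HET arrays and 10.97 and 8.74 on the colon WT arrays, with 8.63 to 9.19 on the stomach arrays. The low value was that of colon WT 2, and which part of the altered gene the probe set reads was not tested. Calls below that change without this array are given both ways.

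A probe set was tested between the tissues when it reached log2 6.53 (intensity 76.5), the 40th percentile of each array, on at least 2 of the 12 arrays. Of the 35 Hox probe sets, 19 passed, of 18 genes. In colon 19 passed and in stomach 2 passed, those of Hoxa5 and Hoxb2, so 17 entered through colon alone and could hardly differ in the other direction. By cluster, 8 of 10 Hoxa, 8 of 11 Hoxb, 0 of 5 Hoxc and 3 of 9 Hoxd probe sets passed. In whole tissue, fewer cells of a type and less RNA per cell cannot be told apart.

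Of the 19 Hox probe sets tested, 12 were higher in colon than in stomach over the 3 genotypes and 0 were lower (limma, adjusted p under 0.05). Over all 15311 probe sets tested, 20.4% were higher and 25.3% lower. The 12 genes were Hoxa7, Hoxa9, Hoxa10, Hoxa11, Hoxb3, Hoxb5, Hoxb6, Hoxb8, Hoxb9, Hoxd8, Hoxd9 and Hoxd10. Without colon WT 2 the count was 14 of 19, against 22.3% of all probe sets, with Hoxa3, Hoxa5 and Hoxa13 added and Hoxb8 lost. Without the filter all 35 members were tested, and 14 were higher and 2 lower in colon, against 14.2% and 17.4% of all 22626 probe sets. The members added were Hoxd3 and Hoxd4 (higher) and Hoxc4 and Hoxc5 (lower), and all of them lay below 6.53 on all 12 arrays.

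**Figure D1:**
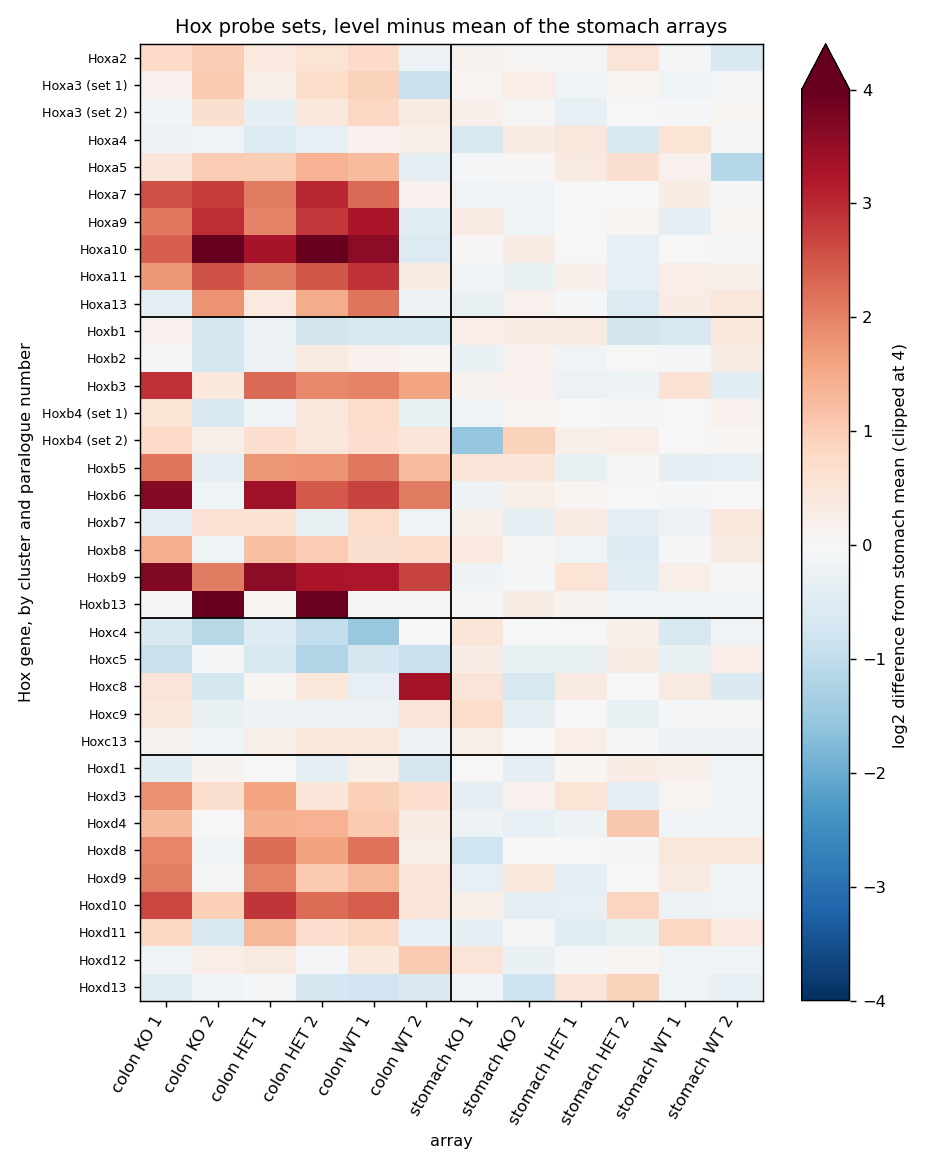
Each cell is the level of a Hox probe set on 1 array minus its mean over the 6 stomach arrays, on the log2 scale, with colon arrays on the left and stomach arrays on the right and genes in order of cluster and paralogue number. The run from Hoxa7 to Hoxa11 is raised on the colon arrays other than colon WT 2, Hoxb5 and Hoxb6 on those other than colon KO 2 and Hoxb9 on all 6 colon arrays, and among the Hoxc genes Hoxc8 is high on colon WT 2.

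The posterior genes of the Hoxa cluster differed between the tissues by more than those at its anterior end. Hoxa10, known for patterning of the lumbar skeleton and the uterus, read 7.74 and 9.51 in colon KO, 8.66 and 9.36 in colon HET and 8.93 and 4.81 in colon WT, against 5.41 and 5.66 in stomach KO, 5.38 and 5.02 in stomach HET and 5.37 and 5.27 in stomach WT. All colon arrays but colon WT 2 lay above every stomach array, and colon WT 2 lay below every stomach array. Over all arrays the difference was 2.82 (SE 0.61, limma adjusted p = 0.00434). Without colon WT 2 it was 3.50 (SE 0.30, adjusted p = 9.47e-06). Because no stomach array reached 6.53, this is given as at least 3.11-fold higher in colon, taking stomach at that level.

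Its neighbour Hoxa9, a regulator of blood progenitors, read 6.85 and 7.69 in colon KO, 6.74 and 7.56 in colon HET and 8.03 and 4.32 in colon WT, against 4.39 to 5.09 (median 4.79) in stomach. The difference was 2.12 (SE 0.55, adjusted p = 0.0106), or at least 1.26-fold. Hoxa11, which shapes the forearm, kidney and uterus, read 7.09 and 7.92 in colon KO, 7.44 and 7.85 in colon HET and 8.25 and 5.66 in colon WT, against 5.05 to 5.65 (median 5.42) in stomach. Here even colon WT 2 lay above the highest stomach array, though by a margin of the last digit printed. The difference of Hoxa11 was 2.0 (SE 0.39, adjusted p = 0.00245), or at least 1.79-fold. The differences without colon WT 2 were 2.73 for Hoxa9 and 2.43 for Hoxa11.

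Hoxa7, a gene of the thoracic skeleton, read 6.80 and 7.02 in colon KO, 6.34 and 7.27 in colon HET and 6.52 and 4.43 in colon WT, against 4.13 to 4.56 (median 4.23) in stomach. The 5 arrays other than colon WT 2 were well clear of stomach, and the difference over all arrays was 2.14 (SE 0.37, adjusted p = 0.00118), with no fold given because the colon mean lay below 6.53, and 2.49 without colon WT 2. Hoxa13, the most posterior gene of the cluster and a factor of digits and the hindgut end, read 5.01 and 7.17 in colon KO, 5.76 and 6.85 in colon HET and 7.51 and 5.17 in colon WT, against 4.83 to 5.80 in stomach. Its difference of 0.89 (SE 0.48, adjusted p = 0.162) did not pass over all arrays, and without colon WT 2 it was 1.28 (SE 0.40, adjusted p = 0.0250). The colon arrays were split, with colon KO 2, HET 2 and WT 1 high and the other 3 within the stomach range.

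Towards the anterior end, Hoxa5, which is needed for lung and stomach development in the mouse, was measured in both tissues. It read 7.24 and 7.76 in colon KO, 7.75 and 8.15 in colon HET and 8.03 and 6.39 in colon WT, against 6.67 and 6.81 in stomach KO, 7.12 and 7.39 in stomach HET and 6.93 and 5.61 in stomach WT. The ranges overlapped, and the difference was 0.80 (SE 0.31, adjusted p = 0.0593), or 1.07 (SE 0.24, adjusted p = 0.00438) without colon WT 2. The probe sets of Hoxa3, a gene of the pharyngeal arches, differed by 0.37 (SE 0.30, adjusted p = 0.349) and 0.30 (SE 0.22, adjusted p = 0.295). The Hoxa3 probe set given ahead of the other may also bind related transcripts, and without colon WT 2 it passed with 0.66 (SE 0.20, adjusted p = 0.0218). Hoxa2 and Hoxa4 did not pass the filter.

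In the Hoxb cluster Hoxb3, Hoxb5, Hoxb6, Hoxb8 and Hoxb9 were higher in colon, and the array that stood low was another than in the Hoxa cluster. Hoxb9, known for patterning of the ribs, read 8.24 and 6.62 in colon KO, 8.13 and 7.81 in colon HET and 7.78 and 7.26 in colon WT, against 4.36 and 4.46 in stomach KO, 5.10 and 4.09 in stomach HET and 4.82 and 4.48 in stomach WT. Every colon array, colon WT 2 included, was above every stomach array. With a difference of 3.09 (SE 0.30, adjusted p = 3.08e-05), or at least 2.16-fold, it had the smallest p of the members. Of the 35 members, Hoxa11 and Hoxb9 were the 2 with every colon array above every stomach array. That share was below the 8.02% of all probe sets. Without colon WT 2 there were 6 such members (Hoxa7, Hoxa9, Hoxa10, Hoxa11, Hoxb9 and Hoxd10), against 10.2% of all probe sets.

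Hoxb6, a gene of the trunk mesoderm, read 9.73 and 5.91 in colon KO, 9.50 and 8.53 in colon HET and 8.79 and 8.18 in colon WT, against 5.90 to 6.31 (median 6.07) in stomach. Here the low array was colon KO 2, which lay within the stomach range. The difference was 2.35 (SE 0.54, adjusted p = 0.00576), or at least 3.75-fold. Hoxb5, which is known in enteric neural crest cells, read 7.98 and 5.46 in colon KO, 7.63 and 7.65 in colon HET and 7.96 and 7.09 in colon WT, against 5.45 to 6.35 (median 5.73) in stomach. It showed the same low array, and a difference of 1.45 (SE 0.37, adjusted p = 0.0106), or at least 1.70-fold.

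Hoxb3, a gene of the hindbrain and pharynx, read 7.95 and 5.47 in colon KO, 7.32 and 6.96 in colon HET and 7.05 and 6.62 in colon WT, against 4.59 to 5.65 (median 5.03) in stomach. Its difference was 1.84 (SE 0.39, adjusted p = 0.00395), or at least 1.29-fold, and it was the only member of paralogue groups 1 to 4 that passed over all arrays with the filter. Hoxb8, known in blood progenitors, read 6.85 and 5.22 in colon KO, 6.60 and 6.40 in colon HET and 6.03 and 6.11 in colon WT, against 4.89 to 5.80 (median 5.37) in stomach, a difference of 0.81 (SE 0.28, adjusted p = 0.0418). The colon KO 2 array was again the lowest for both genes. The Hoxb8 probe set may also bind related transcripts, and its call was lost without colon WT 2, with 0.79 (SE 0.32, adjusted p = 0.0633). Hoxb2 did not differ detectably (-0.06, SE 0.19, adjusted p = 0.800), nor did the Hoxb4 probe set tested (0.12, SE 0.26, adjusted p = 0.722).

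Hoxb13, the posterior end of its cluster and a gene known in the tail, the prostate and the distal hindgut, behaved unlike its neighbours. It read 4.31 and 10.81 in colon KO, 4.39 and 8.24 in colon HET and 4.24 and 4.31 in colon WT, against 4.12 to 4.58 in stomach. It was thus high on colon KO 2 and colon HET 2 alone, and the other 4 colon arrays lay within the stomach range. The tissue difference of 1.78 (SE 1.02, adjusted p = 0.185) did not pass. Hoxa13 also read above all stomach arrays on these 2 arrays, and on colon WT 1, where Hoxb13 was at background. Hoxd13, which shapes digits and the anal sphincter in the mouse, lay between 4.14 and 4.87 in colon and between 4.09 and 5.84 in stomach.

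**Figure D2:**
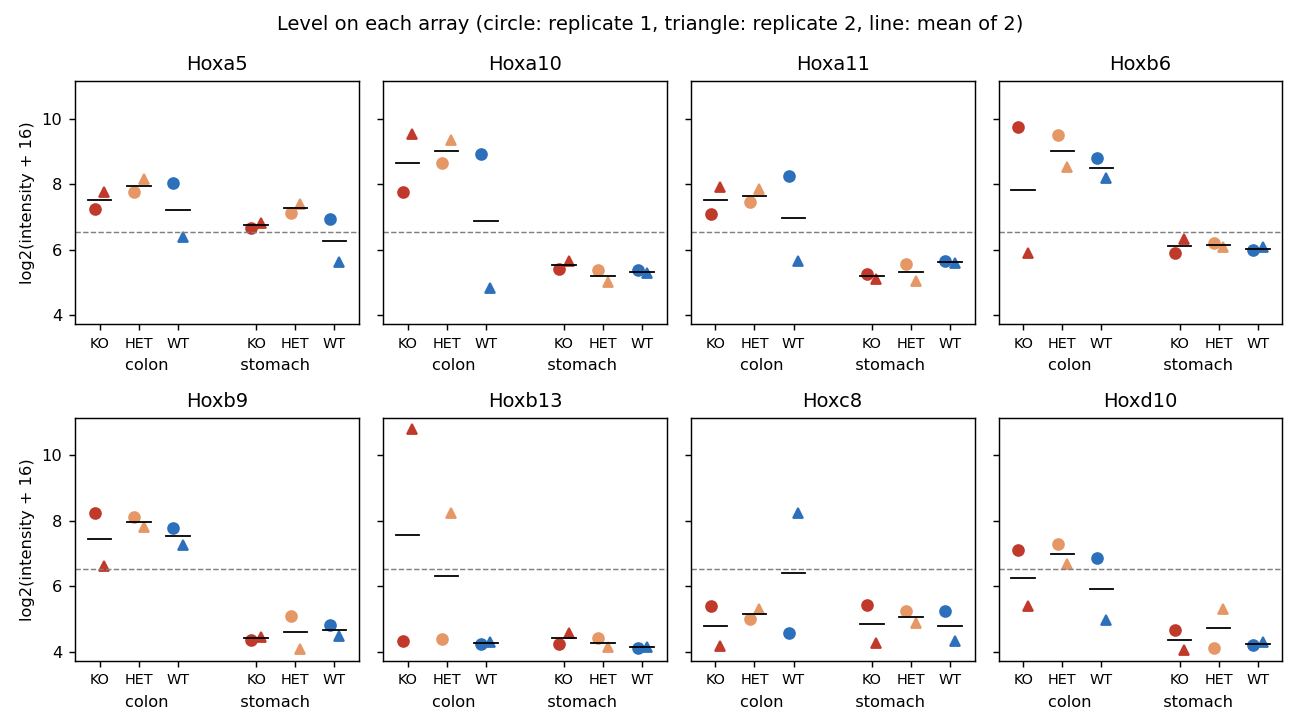
Levels of 8 Hox probe sets as log2(intensity + 16), with colon KO, HET and WT left of stomach KO, HET and WT, circles for replicate 1, triangles for replicate 2, a line at the mean of both and a dashed line at the filter level of 6.53. Hoxa10 and Hoxa11 are low on colon WT 2, Hoxb6 is low on colon KO 2, Hoxb13 is high on colon KO 2 and colon HET 2, and Hoxc8 is high on colon WT 2.

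In the Hoxd cluster 3 adjacent genes of 9 passed the filter, through colon alone, so they could hardly be lower there. All 3 were called higher in colon, against 20.4% of all probe sets tested. Hoxd10, known in hindlimb motor neurons, read 7.12 and 5.40 in colon KO, 7.29 and 6.68 in colon HET and 6.87 and 4.96 in colon WT, against 4.06 to 5.30 (median 4.24) in stomach, a difference of 1.95 (SE 0.44, adjusted p = 0.00507). Hoxd8 read 7.79 and 5.72 in colon KO, 8.07 and 7.45 in colon HET and 8.01 and 6.06 in colon WT, against 5.05 to 6.29 (median 5.82) in stomach, a difference of 1.35 (SE 0.42, adjusted p = 0.0242), or at least 1.57-fold. Hoxd9, like Hoxd10 a gene of the limbs, read 7.60 and 5.51 in colon KO, 7.53 and 6.60 in colon HET and 6.87 and 6.03 in colon WT, against 5.16 to 5.99 (median 5.51) in stomach, a difference of 1.15 (SE 0.37, adjusted p = 0.0307), or at least 1.12-fold. For these genes both colon KO 2 and colon WT 2 were low, and the other 4 colon arrays lay above all stomach arrays. The differences without colon WT 2 were 2.27 for Hoxd10, 1.67 for Hoxd8 and 1.29 for Hoxd9. The calls of Hoxd8 and Hoxd9 depended on single arrays, with limma adjusted p of up to 0.167 and 0.143 over the alternatives tried.

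No Hoxc probe set reached the level needed for a test. Hoxc8, a gene of the thoracic skeleton and of brachial motor neurons, read 5.40 and 4.19 in colon KO, 4.99 and 5.31 in colon HET and 4.56 and 8.22 in colon WT, against 4.27 to 5.41 in stomach. It was above 6.53 on colon WT 2 alone. Hoxc4, Hoxc5, Hoxc9 and Hoxc13 were below 6.53 on all 12 arrays.

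Ordered by paralogue number, the median tissue difference over the colon arrays was larger in the posterior groups, though not on each colon array. The median difference over all members, filter or not, was 0.30 for the 13 probe sets of groups 1 to 4, 0.81 for the 9 of groups 5 to 8 and 1.15 for the 13 of groups 9 to 13. Positive differences were seen in 8 of 13, 8 of 9 and 12 of 13, taken in the same order. Set against the stomach mean array by array, the medians rose in this order on colon HET 1, colon HET 2 and colon WT 1. They did not on colon KO 1 (0.18, 1.45 and 0.83), colon KO 2 (0.13, -0.12 and 0.97) or colon WT 2 (0.07, 0.23 and 0.04). Over all 35 members the median was 0.55 with 28 positive, against a median of -0.03 over all 22626 probe sets. By cluster the median was 0.84 for Hoxa, 0.81 for Hoxb, 0.01 for Hoxc and 0.92 for Hoxd. Within Hoxa it was 0.33, 1.47 and 2.06 for the groups 1 to 4, 5 to 8 and 9 to 13, and within Hoxb it was 0.12, 1.13 and 2.43, the last over Hoxb9 and Hoxb13 alone. Hoxd did not follow that order, with 0.92 for its groups 1 to 4, all below 6.53, and 0.45 for its groups 9 to 13. These medians describe the probe sets and were not tested, since members of a cluster share their samples and, in part, their control regions.

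**Figure D3:**
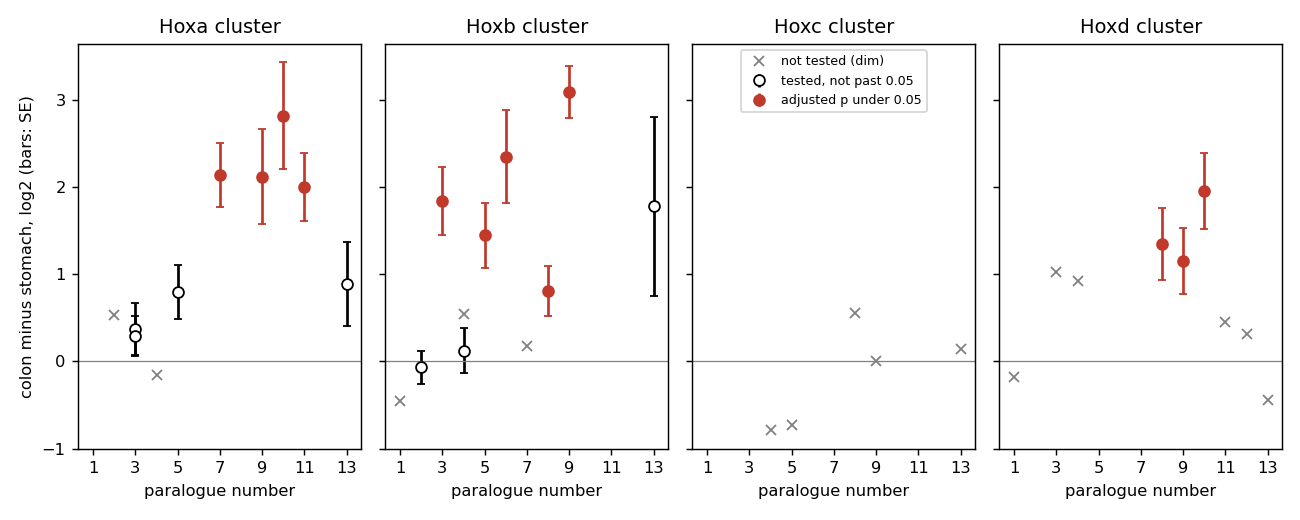
The tissue difference, colon minus stomach over the 3 genotypes in log2 units with bars for SE, is plotted against paralogue number in each cluster, with the legend separating probe sets by whether they passed the filter and the test. The Hoxa and Hoxb differences are small at low paralogue numbers, apart from Hoxb3 at 1.84, and reach 2.82 at Hoxa10 and 3.09 at Hoxb9, while the Hoxc differences run from -0.79 at Hoxc4 to 0.55 at Hoxc8.

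The colon arrays were not alike in their Hox profiles, and 2 of them were low over different runs of genes. For the 5 genes from Hoxa7 to Hoxa13, the median level minus the stomach mean was 2.10 on colon KO 1, 2.76 on colon KO 2, 2.07 on colon HET 1, 2.81 on colon HET 2, 2.88 on colon WT 1 and -0.19 on colon WT 2. For the 6 probe sets from Hoxb3 to Hoxb9 that passed in colon, it was 2.51 on colon KO 1, -0.18 on colon KO 2, 2.02 on colon HET 1, 1.85 on colon HET 2, 2.05 on colon WT 1 and 1.40 on colon WT 2. For Hoxd8 to Hoxd10 it was 2.06 on colon KO 1, -0.04 on colon KO 2, 2.24 on colon HET 1, 1.61 on colon HET 2, 2.17 on colon WT 1 and 0.49 on colon WT 2. By these medians colon WT 2 was near stomach over posterior Hoxa and above it over Hoxb, and colon KO 2 the other way round. On colon KO 2, Hoxb9 and Hoxb13 were nevertheless above every stomach array. Both arrays were low over Hoxd8 to Hoxd10, and for the Hoxb4 probe set tested they read 5.49 on colon KO 2 and 5.84 on colon WT 2, below every stomach array.

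Set against the 6 stomach arrays singly, 17 of the 35 members on colon KO 1, 14 on colon KO 2, 17 on colon HET 1, 22 on colon HET 2, 22 on colon WT 1 and 11 on colon WT 2 lay above all of them. The share of all probe sets doing so was 24.8%, 25.5%, 24.4%, 23.6%, 25.9% and 25.9% on the same arrays. On colon KO 2 these were 9 of 10 Hoxa, 3 of 11 Hoxb, 0 of 5 Hoxc and 2 of 9 Hoxd probe sets. On colon WT 2 they were 2 of 10 Hoxa, 5 of 11 Hoxb, 1 of 5 Hoxc and 3 of 9 Hoxd. Among the 19 probe sets tested in colon, colon KO 2 was the lowest colon array for 9 (7 of 8 in Hoxb, 2 of 3 in Hoxd, 0 in Hoxa) and colon WT 2 for 7 (6 of 8 in Hoxa, 1 in Hoxd). The highest array was colon KO 1 for 6, 5 of them in Hoxb, and colon WT 1 for 5, 4 of them in Hoxa. How often each array was lowest or highest over all probe sets was not computed. Colon WT 2 and colon KO 2 also had the lowest mean correlations with the other colon arrays (0.933 and 0.957). These counts are therefore not shown to be particular to Hox genes.

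**Figure D4:**
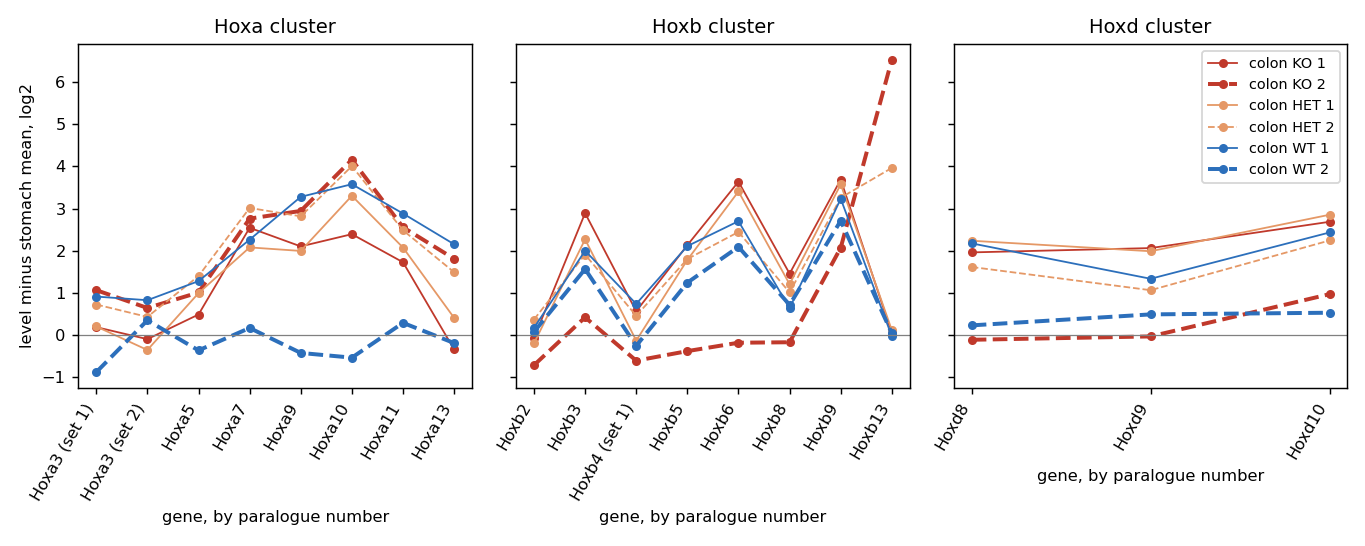
Level on each colon array minus the mean of the 6 stomach arrays, in log2 units, for the Hox probe sets that passed the filter in colon, in order of paralogue number within the Hoxa, Hoxb and Hoxd clusters. The thick dashed lines are colon KO 2, at or below 0 from Hoxb4 to Hoxb8 and above 6 at Hoxb13, and colon WT 2, within 1 log2 unit of 0 across the Hoxa cluster and close to the other colon arrays over Hoxb5 to Hoxb9.

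Markers of the muscle, stroma and nerve cells of the gut wall also differed between these arrays. The summed intensity of 9 smooth muscle genes was 37796 on colon KO 2 and 23771 on colon WT 2, with 33739 to 49766 on the other 4 colon arrays and 27681 to 33492 on the stomach arrays. For 10 fibroblast and stroma genes the sum was 21564 on colon KO 2 and 17756 on colon WT 2, with 20389 to 28231 on the other 4 and 19310 to 23881 in stomach. For 10 enteric neuron and glia genes it was 2588 on colon KO 2 and 1623 on colon WT 2, with 3284 to 4508 on the other 4 and 1175 to 2401 in stomach. For colon KO 2, the muscle and stroma sums lay within the range of the other 4 colon arrays and the neuron and glia sum below it. Colon KO 2 also stood apart in a list of adipose genes (1709, where the other 5 colon arrays had 7352 to 13657 and stomach 3589 to 7739). It did so in exocrine pancreas genes (10316, against 1492 to 5025 on the other colon arrays), and both arrays in blood and immune genes (22221 on colon KO 2 and 29140 on colon WT 2, against 11347 to 13845 on the other 4). Much of the blood and immune sum on colon WT 2 came from Lyz2 alone. It read 14.19 there and 9.94 to 11.72 on the other 5 colon arrays. Whether the number of immune cells differed between the arrays was not tested. The part of these differences in the Hox values was not tested, nor was the site along the colon from which each sample was cut, which the labels do not give.

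Within each genotype fewer members passed, as each comparison rests on 2 arrays against 2. In KO mice 3 were higher in colon than in stomach (Hoxa7 by 2.78, Hoxa11 by 2.32 and Hoxb9 by 3.02), against 9.1% of all probe sets. In HET mice 5 were higher (Hoxa7 by 2.54, Hoxa10 by 3.81, Hoxa11 by 2.34, Hoxb3 by 2.31 and Hoxb9 by 3.37), against 9.18%. In WT mice 2 were higher (Hoxb5 by 2.05 and Hoxb9 by 2.87), a share close to the 10.1% of all probe sets. There Hoxa10 had a difference of 1.55 (SE 1.06, limma adjusted p = 0.322). Hoxb9 was the member that passed in all 3 genotypes. Without colon WT 2 the counts were 6 in KO, 10 in HET and 8 in WT mice, against 12.8%, 13% and 10.6% of all probe sets. These comparisons share a common estimate of spread, so the array left out also moves the KO and HET counts. Leaving out colon KO 2 as well, an array picked for its low Hoxb values, gave 11 of 17 in KO, 12 in HET and 13 in WT mice, against 13.4%, 15.9% and 13.8% of all probe sets, and 15 over the genotypes, against 23.4%.

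No Hox probe set differed between the Spdef genotypes in colon by limma with adjusted p under 0.05, of 19 tested. In all, 0.056% of the probe sets tested in colon were called between KO and WT, 0.028% between HET and WT and 0.014% between KO and HET. Between colon HET and WT, 0 Hox probe sets had an unadjusted p under 0.05 in limma, against 9.44% of all probe sets. Between KO and HET there were 0, against 4.55%. Between KO and WT there was 1 Hox probe set, against 12% of all probe sets. That probe set was Hoxa7, with 6.80 and 7.02 in KO against 6.52 and 4.43 in WT, a difference of 1.44 (SE 0.64, adjusted p = 0.413). Next came Hoxb13, with 4.31 and 10.81 in KO against 4.24 and 4.31 in WT, a difference of 3.28 (SE 1.77, adjusted p = 0.472). Hoxa10 followed with 7.74 and 9.51 in KO against 8.93 and 4.81 in WT, a difference of 1.76 (SE 1.06, adjusted p = 0.510). In each of these a single array, colon WT 2 or colon KO 2, lay far from its partner, and KO and WT overlapped for Hoxa10 but not for Hoxa7.

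Between colon HET and WT the smallest p belonged to Hoxa7 (1.33, SE 0.64, adjusted p = 0.537), Hoxa10 (2.14, SE 1.06, adjusted p = 0.537) and 1 of the Hoxa3 probe sets (-0.55, SE 0.38, adjusted p = 0.624). Between colon KO and HET it belonged to Hoxb2 (-0.48, SE 0.33), Hoxb5 (-0.92, SE 0.65) and Hoxd8 (-1.0, SE 0.72), each with an adjusted p of 0.992. The low KO values of Hoxb5 and Hoxd8 were those of colon KO 2. Without colon WT 2 there was again no Hox call between KO and WT, against 0.39% of all probe sets, and the smallest p were those of Hoxa11 (-0.74, SE 0.41, adjusted p = 0.483), Hoxa13 and Hoxd8, with lower KO means. Without colon KO 2 as well there was no Hox call, against 2.3% of all probe sets, and 4 of 17 members had an unadjusted p under 0.05, against 16.7% of all probe sets. With standard errors of 0.64 for Hoxa7 and 1.06 for Hoxa10, a missed threshold does not show that the genotypes are alike.

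**Figure D5:**
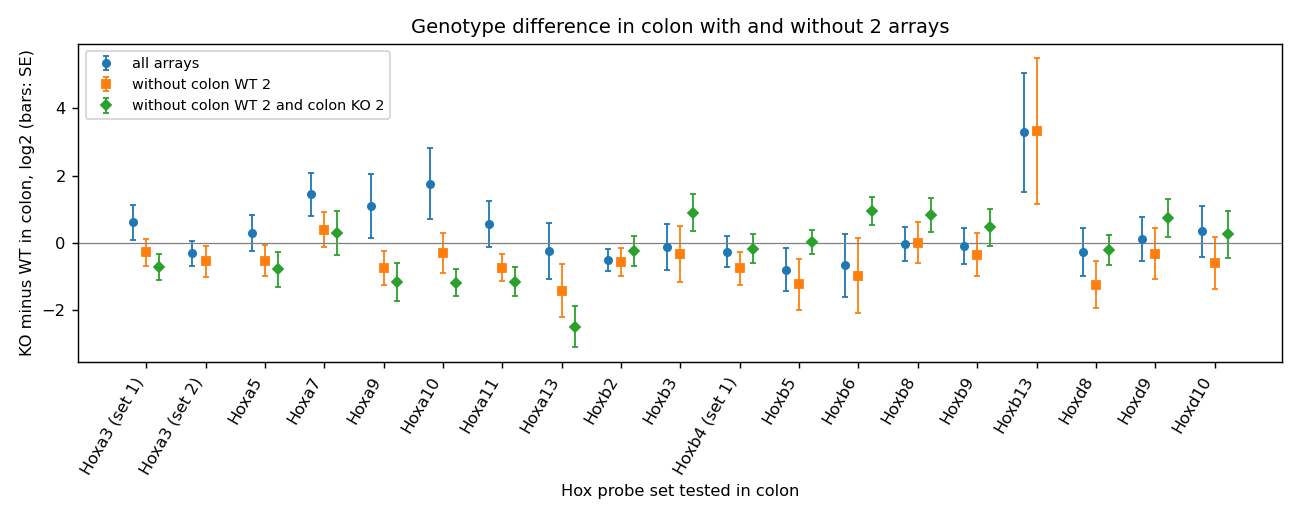
The KO minus WT difference in colon, in log2 units with bars for SE, for the Hox probe sets tested in colon, over all arrays, with colon WT 2 left out, and with colon KO 2 left out as well, which leaves 1 array in each group. Over all arrays no difference passed the test. Positive over all arrays but negative without colon WT 2 are 1 of the Hoxa3 probe sets, Hoxa5, Hoxa9, Hoxa10, Hoxa11, Hoxd9 and Hoxd10.

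In stomach 2 members could be tested, and neither was called between genotypes. Hoxa5 had a KO minus WT difference of 0.47 (SE 0.53) and a HET minus WT difference of 0.99 (SE 0.53), and stomach WT 2 was the low array. Hoxb2, a gene of the hindbrain, read 6.11 and 6.56 in KO, 6.25 and 6.39 in HET and 6.31 and 6.69 in WT, with a KO minus WT difference of -0.17. The share of all probe sets called in stomach was 0.00701% between KO and WT, 0% between HET and WT and 0.00701% between KO and HET. By an interaction term in limma, none of 19 members was called for a KO effect that differed between colon and stomach. Of all probe sets, 0.0261% were called. The smallest p were those of Hoxa7 (1.70, SE 0.90), Hoxb5 (-1.66, SE 0.91) and Hoxb13 (3.02, SE 2.50). None of the members was under an unadjusted p of 0.05, against 4.75% of all probe sets. With standard errors of this size, a missed threshold does not show that the effects are alike.

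The partners and regulators of the clusters were read from lists that were chosen with earlier results of these data known. Of the TALE cofactors 5 were tested between the tissues, and 1 was higher and 3 lower in colon, against 20.4% and 25.3% of all probe sets. Pbx3 averaged 7.28 in colon and 8.57 in stomach (-1.29, SE 0.23, limma adjusted p = 0.00131), Meis2 averaged 7.22 in colon and 8.19 in stomach (-0.98, SE 0.13, adjusted p = 0.000273) and Meis1 averaged 7.74 in colon and 8.20 in stomach (-0.46, SE 0.10, adjusted p = 0.00404). Pknox1 was higher in colon by 0.56 (SE 0.20, adjusted p = 0.0396), a call lost without colon WT 2 (0.53, adjusted p = 0.0639). Pbx3, Meis2 and Meis1 were thus lower in the tissue where more Hox members were higher, and whether these differences are linked was not tested.

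The caudal factors Cdx1 and Cdx2, which specify intestinal epithelium, were both higher in colon. Cdx1 averaged 9.82 in colon and 4.30 in stomach, a log2 difference of 5.52 (SE 0.17, limma adjusted p = 1.08e-08), or at least 3.29 with stomach taken at the filter level. Cdx2 averaged 10.09 in colon and 4.72 in stomach, a difference of 5.37 (SE 0.29, adjusted p = 5.08e-07), or at least 3.56. On colon WT 2, where the posterior Hoxa genes were at the stomach level, Cdx1 read 9.26 and Cdx2 read 9.59. Foregut factors ran the other way, with 5 of 8 regional factors lower in colon and 1 higher, against 25.3% and 20.4% of all probe sets. Gata4, of gastric epithelium, averaged 4.72 in colon and 10.33 in stomach, a difference bounded at -3.80 with colon taken at the filter level. Sox2, of the foregut, averaged 4.93 in colon and 8.01 in stomach, bounded at -1.47 in the same way. Isl1, a LIM homeodomain factor, averaged 6.09 in colon and 10.08 in stomach.

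Of 15 polycomb and trithorax genes tested, 2 were higher and 4 lower in colon, shares close to or below the 20.4% and 25.3% of all probe sets. Suz12 joined the lower genes when colon WT 2 was left out. Jarid2, a polycomb partner, was higher by 1.01 (SE 0.17, adjusted p = 0.00104), while Bmi1 was lower by a difference of -0.87 (SE 0.09) and Phc1 by -0.77 (SE 0.18), both subunits of the complex that compacts Hox chromatin. Of 10 retinoic acid and Gdf11 genes, 1 was higher and 1 lower: Crabp1, a retinoic acid carrier, by 1.19 (SE 0.27, adjusted p = 0.00525) and Dhrs3, a retinaldehyde reductase, by -0.99 (SE 0.11, adjusted p = 7.58e-05). Crabp1 was dim, averaging 6.24 in colon and 5.05 in stomach, both below 6.53, so its difference has no bound against that level. Of 9 smooth muscle genes 2 were higher in colon, of 9 stroma genes 2 and of 6 neuron and glia genes 4, against 20.4% of all probe sets. None was lower in these lists, against 25.3%. With colon WT 2 left out, 7 of 9 smooth muscle genes were higher (Actg2, Myh11, Des, Cnn1 and Synpo2 added). So were 3 of 9 stroma genes (Col6a1 added) and 5 of 6 neuron and glia genes (Nos1 added), against 22.3% of all probe sets. The part of these genes in the Hox difference was not tested. Over all arrays the differences were 0.75 for Myocd of smooth muscle, 0.95 for Thy1 of stroma and 1.10 for Uchl1 of neurons.

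The epithelial lists separated the tissues. Over all probe sets tested, 20.4% were higher and 25.3% lower in colon. All 10 stomach gland and surface genes were lower in colon, with a summed intensity of 258 to 358 on the colon arrays, and all 9 colon epithelium genes were higher, with sums of 92659 to 108038 on 5 colon arrays and 73690 on colon WT 2. Of 9 genes shared by gut epithelia 5 were higher in colon. Of 10 small intestine genes 3 were higher and 4 lower, and of 8 squamous genes, which mark the forestomach, 7 were lower. The summed intensity of all 10 squamous genes read was uneven in stomach. It was 2363 and 1896 in KO, 15852 and 2021 in HET and 4752 and 8178 in WT. Of 8 blood and immune genes 2 were higher, of 4 adipose genes 2 were higher and of 4 exocrine pancreas genes 2 were lower. With colon WT 2 left out, Fabp1 of the small intestine and Cela2a of the pancreas joined the lower genes, and Retn of adipose tissue was no longer called.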

How the data were processed

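RNA of 12 samples was hybridised to Affymetrix mouse genome arrays. The deposited value of a probe set is its intensity on a linear scale (0.16 to 32077). Per the submitters' processing notes, the authors used MAS5 for 9 arrays and RMA for the other 3, both without a version. The RMA note stands on colon WT 1 and on both stomach KO arrays. All columns were nevertheless linear, and no scanner files were used here. Of 22716 probe sets, 90 controls were left out. Of the rest, 18003 had 1 gene in the platform annotation, 287 several and 4336 none, and symbols were updated through gene identifiers for 17977, all 35 Hox probe sets among them.

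Values were taken as log2(intensity + 16) and quantile normalised over the 12 arrays. A probe set was tested between tissues when it reached the 40th percentile (6.53) on at least 2 of 12 arrays, and within a tissue on at least 2 of its 6. A model with 1 mean for each of 6 groups was fitted in R 4.3.3 with limma 3.58.1 (intensity trend on, residual degrees of freedom 6, prior 3.59). Benjamini-Hochberg adjustment ran over all probe sets tested, with a threshold of 0.05. "At least" marks a difference taken against 6.53 because no array of the dimmer group reached it. Probe sets of a Hox gene were kept apart, while each gene of the other lists was read by 1 probe set, that with the highest mean. The pipeline was tested on simulated data.

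Members and gene lists (16 lists, 160 of 193 entries matched) were chosen with earlier results of these data known. Values were named for Hoxa10 and for Hox probe sets past the threshold between tissues, for the 3 Hox probe sets with the smallest p where a genotype comparison had no call, and for up to 3 members of each list past the threshold, plus Cdx1 and Cdx2. Hoxa3, Hoxa5, Hoxa13, Hoxb2, Hoxb4, Hoxb13, Hoxc8, Hoxd13, Meis1, Fabp6, Car1 and the marker sums by array were described after their values were seen. Promoter windows came from RefSeq GRCm38.p6, read with Python 3.11.15, and figures used matplotlib 3.10.9.

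Same-numbered arrays did not deviate together between groups (correlations -0.30 to 0.24 over 15 pairs of groups), so numbers were not used to pair samples. Alternatives were offsets of 1 and 64, skipping the quantile step, skipping the filter or raising it to the array median, skipping the intensity trend, 1 probe set per gene, each tissue fitted alone, the replicate number as a block, leaving out the arrays noted as RMA, and leaving out each array in turn.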

Additional observations from a re-analysis of the deposited data

Results flagged for a closer look

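Within each tissue, the 6 values of each Hox probe set were searched for an array whose gap to its nearest neighbour was large against the whole range (Dixon's criterion). Of 70 such groups of values, 8 held one. The nominal rate of the criterion is about 1 in 20, for independent and normally spread values. The members share their arrays, and the share over all probe sets was not computed. The count is therefore not read as a trait of Hox genes.

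In colon 4 values stood out. The array labelled colon WT 2 read 4.43 for Hoxa7 (next lowest 6.34) and 4.32 for Hoxa9 (next lowest 6.74), and it read 8.22 for Hoxc8 (next highest 5.40). Colon KO 2 read 5.46 for Hoxb5, where the next lowest array read 7.09. All 4 fell on the pair of arrays whose Hox profiles differed from the rest. Those profiles were drawn in part from these same values, so this adds no support to that difference. What sets these arrays apart was not tested.

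In stomach 4 values stood out, and none of them reached the level of 6.53. Hoxa7 read 4.56 on stomach WT 1 (next highest 4.29) and Hoxc9 read 5.33 on stomach KO 1 (next highest 4.59). Hoxd4 read 5.47 on stomach HET 2 (next highest 4.24), and 1 of the Hoxb4 probe sets read 4.22 on stomach KO 1 (next lowest 5.79).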

How the results depend on the processing

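The count of 12 Hox probe sets higher in colon over the genotypes stayed between 9 and 16 calls in 22 alternatives (16 without the filter, 2 of them lower), and none of the 12 tissue differences changed sign. The uncalled KO minus WT difference of Hoxa10 in colon did (1.76, and -0.30 without colon WT 2). With the replicate number as a block (the replicate block) it was 12 again, and 6 for HET mice. Of the 12, 9 passed in every alternative in which they were tested, Hoxa10 with differences of 1.65 to 3.50. Hoxb8 was lost in 10 of 18, Hoxd8 in 8 of 22 and Hoxd9 in 9 of 22, mostly on leaving out 1 array, where fewer samples remain. Within genotypes, leaving out 1 array gave counts of 1 to 6 in KO, 1 to 11 in HET and 1 to 8 in WT mice, the largest WT count without colon WT 2. An offset of 64 gave 3 in HET mice, and in WT mice the count was 1 without quantile normalization, with an offset of 64, without the filter and without the intensity trend. Leaving out 1 array gave 0 to 5 calls between colon KO and WT, 0 to 4 between HET and WT, 0 to 1 between KO and HET and 0 to 1 for the KO effect between tissues. The 5, the 4 and the 1 of the KO effect arose without colon WT 1, where colon WT 2 alone stands for WT and is assumed to vary like the other groups, and all were Hoxa genes, Hoxa10 among them each time. The other single calls were Hoxb6 without colon KO 1, where colon KO 2 alone stands for KO. Leaving out colon WT 2 and colon KO 2 together was added after the data were seen, and gave 11 in KO, 12 in HET and 13 in WT mice. Colon KO 2 was picked for its low Hoxb values, so higher counts without it follow in part from that choice. Among stomach arrays only the KO pair is noted as RMA, so processing and genotype cannot be told apart there.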
